A study of Arabis alpina with 23 samples.

Results

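Of the 34220 genes in the deposited expression table of Arabis alpina, 83 were higher on average after 4 weeks of cold in both the axillary bud and the shoot apex. They were chosen by a rule on mean transcript levels scaled to gene length and library size (TPM). A gene had to average 2 TPM or more after 4 weeks of cold (stage 3), and its ratio to the level in 8-week-old plants (stage 2), taken after adding 0.5 TPM to both, had to be 2 or more, in the axillary bud (AB) and also in the shoot apical meristem (SAM). Genes whose description contains heat shock were left out, which removed 17 genes that met the numbers. The same criteria were met in AB alone by 260 genes and in SAM alone by 184, so the 83 made up 24.2% of the 343 genes that passed in AB and 31.1% of the 267 that passed in SAM. An informative description was given for 58 of the 83, and 25 had none or only a word such as protein. Of the 25, 11 held spreadsheet error text in its place, so the words heat shock could not be searched there and such genes may remain among the 83.

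Libraries were made from the Pajares accession, with no genetic change in any group. AB were very young axillary buds bearing a lone leaf primordium, and SAM were the matching shoot tips, also taken with 1 primordium. Stage 1 plants were 4 weeks old and stage 2 plants 8 weeks old, grown at 24 °C by day and 18 °C by night. Stage 3 plants had then spent 4 weeks, and stage 4 plants 7 weeks, at 4 °C with 16 h of light. There were 3 libraries a group, 2 for AB at stage 1, and each library pooled 120 to 150 buds or shoot tips, so a value is a mean over many plants. Between stages 1 and 4 plant age, cold and any change in the makeup of the dissected tissue cannot be told apart. In such bulk samples fewer cells of a type and less RNA per cell cannot be told apart either.

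Plants that meet low, non-freezing temperatures acclimate to cold. In Arabidopsis, DREB/CBF transcription factors bind the dehydration-responsive element and switch on COR and LEA genes, whose products protect membranes and proteins from freezing and drying, while sugars accumulate. Weeks of cold also act through vernalization, in which PHD-finger proteins of the VIN3 and VRN5 family work with Polycomb complexes to silence the floral repressor FLC, known as PEP1 in A. alpina. A. alpina is a perennial whose apex starts to form flowers during the cold, while axillary buds can stay dormant, and genes such as DRM1 mark dormant buds.

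Total counts per library were 13973874 to 15655452 in AB and 12247645 to 26218502 in SAM, and 21824 to 23524 genes were detected. The meristem genes STM and KNAT1, which keep shoot cells undifferentiated, averaged 98.0 to 184 TPM and 132 to 184 TPM over the 8 groups. CLV3 averaged 1.11 to 5.26 TPM and a WUS-like gene 1.53 to 9.09 TPM, while WOX1 and the gene described as CLE5 were listed at 0 in every group. The stage 3 libraries of both tissues differed widely among themselves. The median deviation of the 83 genes from their mean over the 23 libraries was 0.47, 0.86 and 1.17 on the log2 scale in AB stage 3 replicates 1, 2 and 3, and 0.24, 0.81 and 1.38 in those of SAM. Replicate 1 was the lowest stage 3 library for 44 of the 83 genes in AB and for 56 in SAM. At stage 4 the medians lay closer together, at 0.75, 0.76 and 0.70 in AB and 0.98, 1.31 and 0.85 in SAM. Those of stages 1 and 2 all lay between −1.11 and −0.69. The summed TPM of the 120 genes described as heat shock, which are not among the 83, differed between the same stage 3 libraries, at 5691, 8734 and 10577 in AB and 6412, 10241 and 13223 in SAM for replicates 1, 2 and 3. The part of that difference in the values below was not tested.

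**Figure D1:**
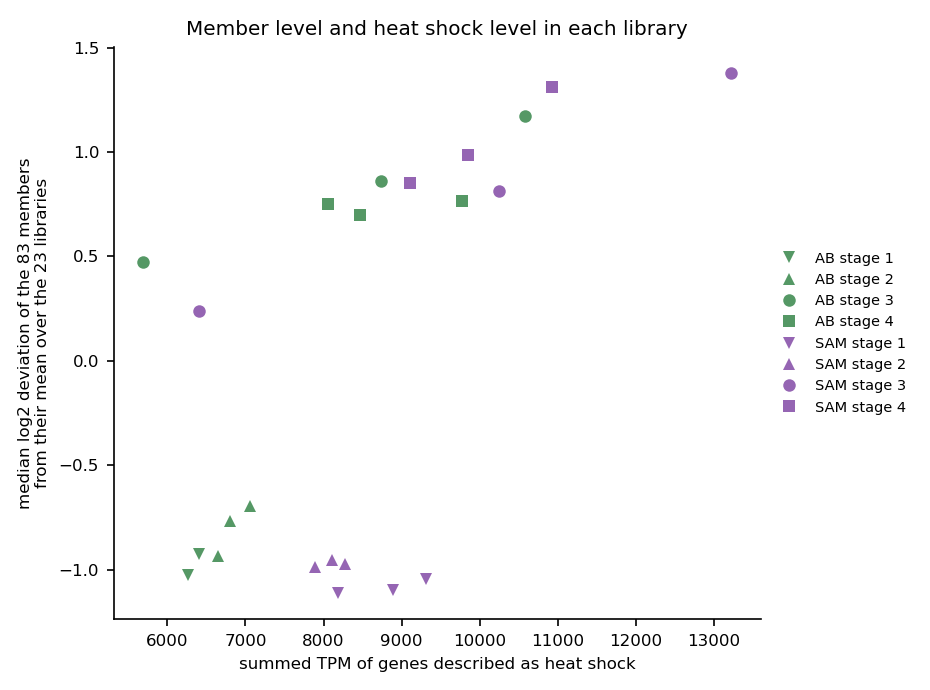
Each point is 1 of the 23 libraries, with the summed TPM of genes described as heat shock on the x axis and the median log2 deviation of the 83 genes from their mean over the 23 libraries on the y axis; colours mark tissue and shapes mark stage. Stage 1 and 2 libraries lie between −1.11 and −0.69, stage 3 and 4 libraries between 0.24 and 1.38, and replicate 1 of stage 3 is the lowest cold library of each tissue.

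Since stages 2 and 3 chose the genes, the values of that step are given as a description without a test. The ratio of stage 3 to stage 2 had a median of 2.76 in AB (range 2.0 to 320) and 3.52 in SAM (range 2.05 to 59.7), against medians of 0.987 and 0.967 over the 17648 genes with 2 TPM or more at stage 3 in both tissues. It was larger in SAM for 50 genes and larger in AB for 33. All stage 3 libraries lay above all stage 2 libraries for 71 genes in AB, 63 in SAM and 61 in both tissues. For the rest the libraries overlapped in AB, in SAM or in both. Aa_G203210 in SAM, for example, had 7.68, 1.35 and 0.999 TPM at stage 3 against 2.53, 1.18 and 0.317 TPM at stage 2. The share over all genes was not taken. The median level of the 83 genes was 3.53, 3.03, 9.65 and 10.5 TPM at stages 1 to 4 in AB and 2.07, 2.17, 12 and 13.9 TPM in SAM. Just inside the threshold stood a gene described as vernalization5/VIN3-like (Aa_G307430, ratio 2.0 in AB), Aa_G1010 (2.02 in AB) and the F-box kelch-repeat gene Aa_G312050 (2.04 in AB). Just outside stood a BAG6 co-chaperone gene (Aa_G381050, 1.99 in SAM), an aquaporin SIP2-1 gene (Aa_G368040, 1.99 in SAM) and a TIC20-IV gene of chloroplast protein import (Aa_G187800, 1.98 in AB).

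**Figure D2:**
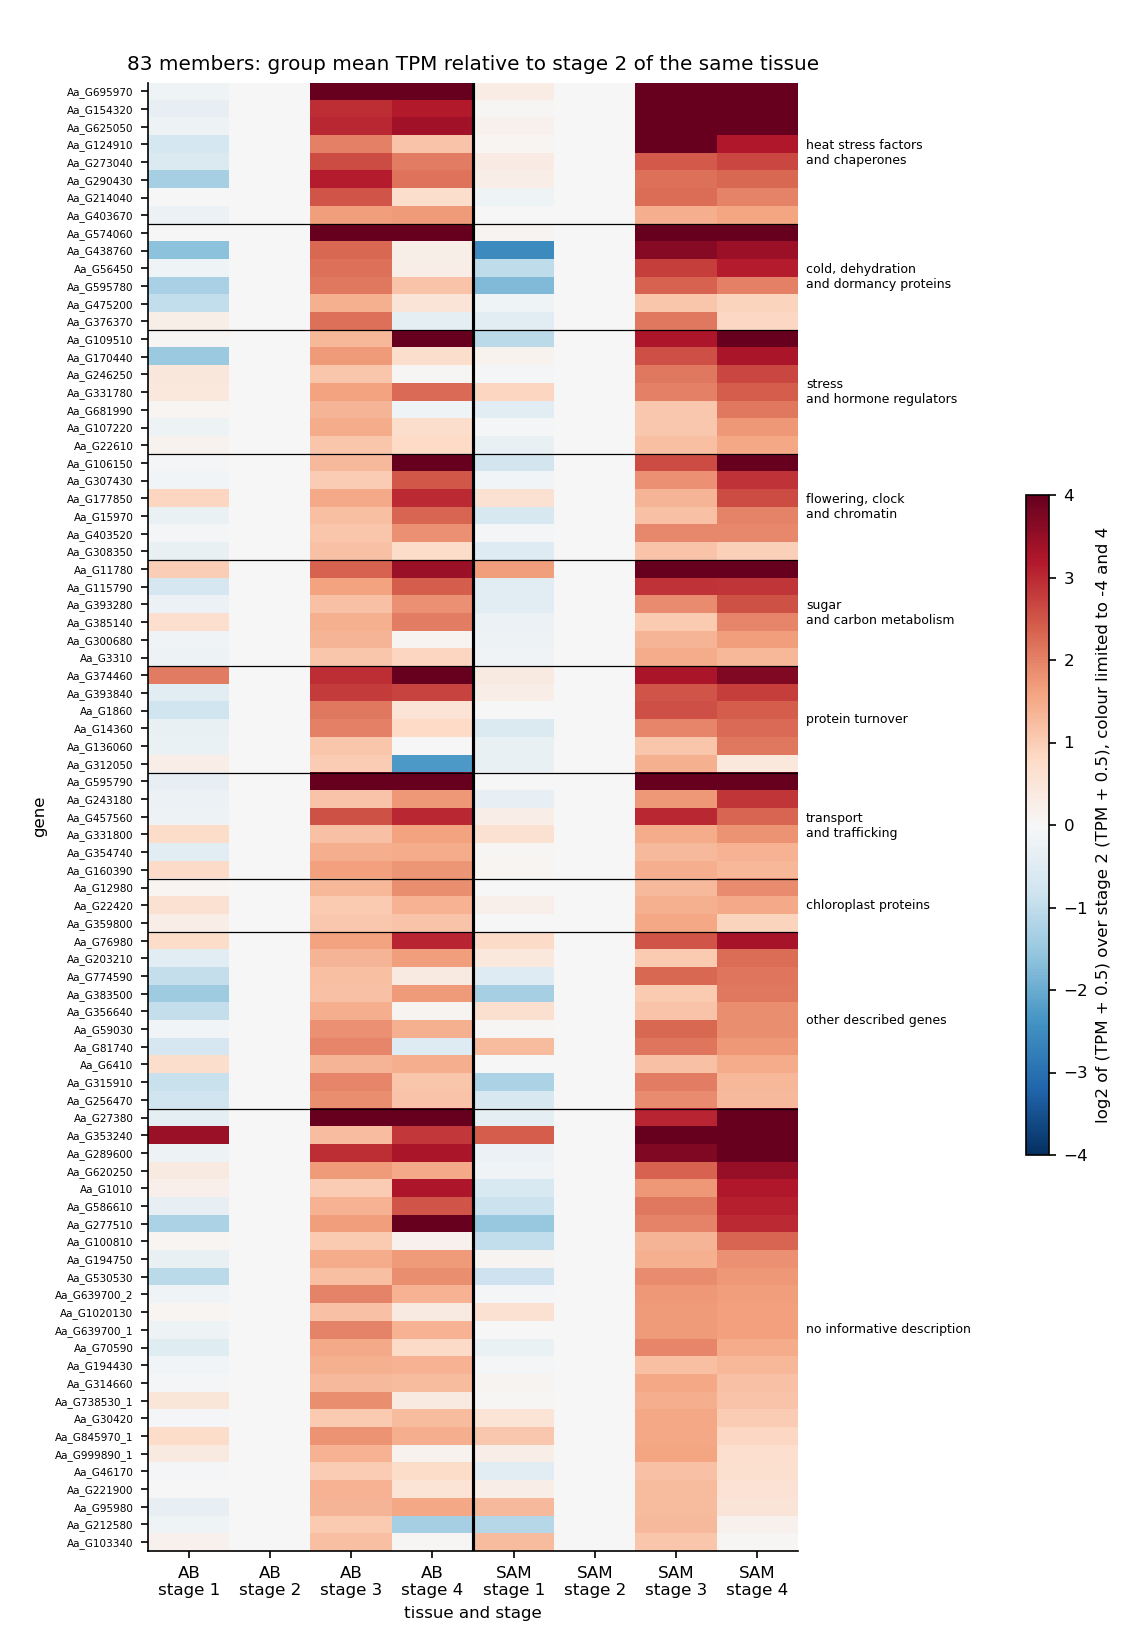
Rows are the 83 genes, grouped by described role, and columns are the 4 stages of AB and of SAM; colour gives the log2 ratio of the group mean TPM + 0.5 to that of stage 2 in the same tissue, limited to −4 and 4. The stage 3 columns are above 0 in every row because the rule chose them so, while the stage 4 columns range from below stage 2 (F-box kelch Aa_G312050 in AB) to far above it.

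Applying the rule to 2 of the replicate numbers and reading the third gave the same measure in libraries that round of the rule had not used. It is a description without a test, since the 83 genes were chosen with all of these libraries. Each left-out stage 3 library was set over the stage 2 library of the same number, though the labels name nothing shared by a number. The tissues cannot be taken as independent of each other here, since same-numbered AB and SAM libraries of stage 3 deviated alike. Leaving out replicate 1, 2 or 3 chose 104, 80 or 73 genes, of which 70, 67 and 59 were among the 83. The left-out replicate had a ratio of 2 or more in both tissues for 27.9%, 60% and 61.6% of the genes chosen without it, against 0.387%, 0.845% and 0.733% of all genes past the level filter. The medians in the left-out replicate were 1.95, 2.82 and 2.48 in AB and 1.65, 2.91 and 3.74 in SAM, lowest for replicate 1 in both tissues.

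The 83 genes lay on all 8 chromosomes of the version 5 assembly, with 16 on chromosome 8 (19.3%, against 17.4% of all genes), and 2 lay on scaffolds. Their median coding length was 735 bp with 3 exons, against 1068 bp and 4 exons over the 17648 genes, and 21% against 16.7% had a single exon. A pair of neighbours stood on the plus strand of chromosome 6: cold regulated protein 27 (COR27, Aa_G595780, 4958976 to 4960336) and trafficking protein particle (TRAPP) complex subunit 3 (Aa_G595790, 4961469 to 4962539) were 1132 bp apart. A bZIP gene (Aa_G331780) and a nuclear transport factor 2 (NTF2) gene (Aa_G331800) lay 4437 bp apart on opposite strands of chromosome 8. Gene models were placed at more than 1 locus for 5 of the 83, and 4 overlapped another model, so their counts are uncertain. Aa_G639700_1 and Aa_G639700_2, both among the 83, are placements of 1 gene name with near-equal counts (22084 and 22110 in AB at stage 3). Both were called higher at stage 4 in SAM in the test below, so 1 signal may be counted more than once.

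Stages 1 and 4 took no part in the rule, so 7 weeks of cold against 4-week-old plants could be tested. In AB 51 of the 81 genes that passed the low-count filter were higher at stage 4 and 1 was lower, where 19.2% of all 21414 tested genes were called higher and 21.8% lower (41% together; edgeR quasi-likelihood test, Benjamini-Hochberg adjusted p under 0.05). In SAM 67 were higher and none lower, against 17% of all tested genes higher and 16.6% lower (33.7% together), and 72 of the 81 had an unadjusted p under 0.05 there. The median log2 change was 2.08 in AB and 2.43 in SAM, and over all tested genes 0.01 and −0.01. With the genes that had no count at stage 1 set to their lower bound the medians were 2.03 and 2.43. The 6 genes in AB and 7 in SAM with 3 or fewer counts at stage 1 passed the low-count filter through cold libraries alone. Their low level before cold is partly built in, so their calls are not separate support for a rise. A gene passes this filter over all libraries, so the limit holds for these genes in both tissues. It covers the AB calls of COR15B (Aa_G574060) and Aa_G289600 and the SAM call of the HsfA6b-like gene (Aa_G695970). The counts of genes called higher, in each tissue and in both together, include such genes. Without replicate 1 of AB stage 1, which leaves 1 library there, 32 genes were called in AB.

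The AB and SAM tests share no library. In both tissues 48 genes were higher, 3 were called higher in AB alone, 19 in SAM alone and 11 in neither. Across the 81 genes the changes in AB and SAM had a Spearman rho of 0.62 (0.37 over all tested genes), as a description. Stage 4 and stage 1 libraries did not overlap for 69 genes in AB (66 of them higher), where 61.6% of all tested genes did not overlap, and for 73 in SAM (all higher), where 50% did not. Leaving aside the 6 genes described as hsp or heat stress, 48 of 75 were higher in AB and 63 of 75 in SAM. Of the genes that met the criteria in AB alone, 57 of 245 tested were higher and 22 lower in AB, and 96 higher and 14 lower in SAM. Of those that met them in SAM alone, 98 of 177 were higher and 14 lower in AB, and 146 higher and none lower in SAM. The differences between these sets were not tested.

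**Figure D3:**
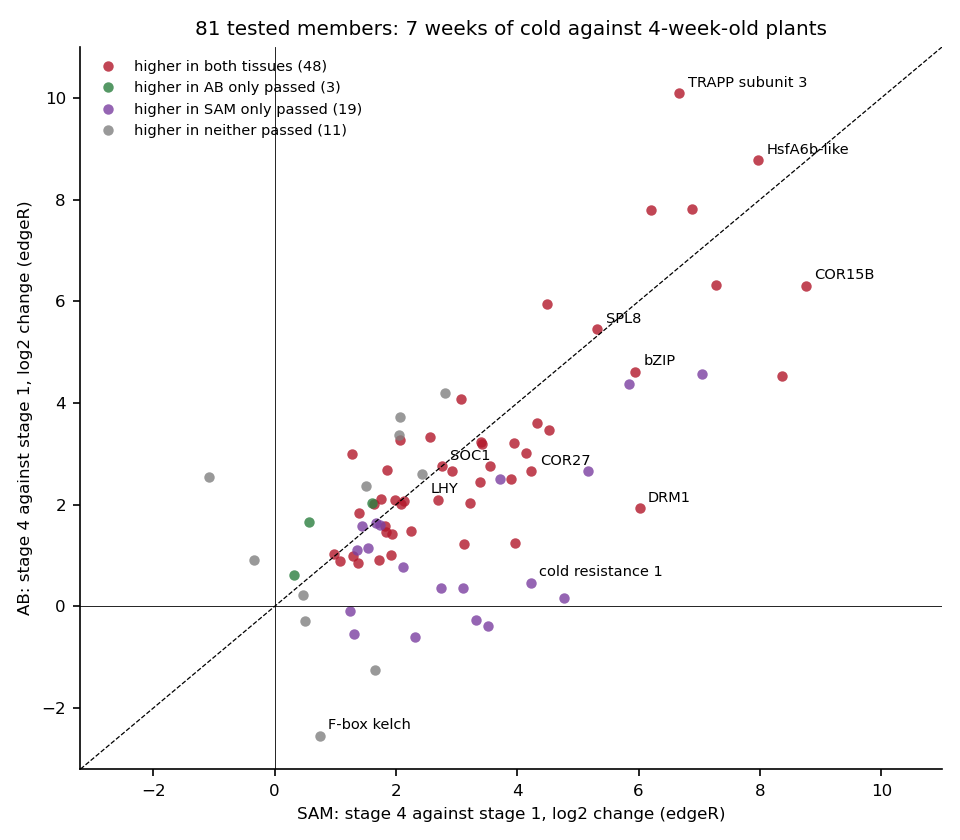
Each point is 1 of the 81 tested genes, with the fitted log2 change of stage 4 against stage 1 in SAM on the x axis and in AB on the y axis; colours give the edgeR calls and the dashed line marks equal changes. The 48 genes higher in both tissues fill the upper right, 53 of the 81 lie below the dashed line, and the F-box kelch gene is lowest in AB at −2.54. Fitted values of the 6 genes in AB and 7 in SAM with 3 or fewer counts at stage 1 depend on the prior count.

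Markers of the meristem and of other cells moved between the same groups. The 33 shoot meristem genes summed to 674 to 736 TPM at stage 4 against 769 to 774 TPM at stage 1 in AB. In SAM they summed to 702 to 777 against 789 to 858 TPM. Of 28 tested, 6 were higher and 8 lower in AB, and 6 higher and 11 lower in SAM. CLV3 averaged 2.05 against 5.26 TPM in AB and 1.30 against 4.46 TPM in SAM. STM went the other way, at 157 against 98.0 TPM and 184 against 115 TPM. The summed level of the 58 photosynthesis genes that mark leaf mesophyll was 10867 to 11855 TPM at stage 4 against 11948 to 14084 TPM at stage 1 in AB (8 higher and 11 lower of 48 tested), and 12738 to 15626 against 17901 to 21294 TPM in SAM (5 higher, 22 lower). The vascular list was at 236 to 247 against 260 to 272 TPM in AB (1 higher, 7 lower of 13) and 244 to 254 against 229 to 244 TPM in SAM (4 higher, 1 lower). Trichome and stomatal genes were at 623 to 675 against 721 to 773 TPM in AB (4 higher, 14 lower of 35) and 648 to 682 against 598 to 613 TPM in SAM (6 higher, 8 lower). Floral regulators were at 1662 to 1910 against 1269 to 1308 TPM in AB (16 higher, 9 lower of 39) and 2021 to 2210 against 1472 to 1493 TPM in SAM (14 higher, 6 lower). The heat shock genes summed to 8053 to 9779 against 6260 to 6400 TPM in AB and 9110 to 10923 against 8182 to 9311 TPM in SAM. The part of these changes in the calls for the 83 genes was not tested.

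Cold, dehydration and dormancy proteins made up 6 of the 83 genes, and the 6 were higher at stage 4 in SAM and 4 of them in AB. COR15B (Aa_G574060, minus strand of chromosome 4, 48980099 to 48980749, 2 exons) encodes, in Arabidopsis, a chloroplast protein that stabilises membranes during freezing. In AB it had 0.712 and 0 TPM at stage 1, 0.898, 0.174 and 0 TPM at stage 2, 19.1, 54.4 and 52.1 TPM at stage 3, and 22.1, 32.3 and 31.6 TPM at stage 4. In SAM it had 0, 0 and 0.264 TPM at stage 1, 0, 0.136 and 0 TPM at stage 2, 2.26, 19.1 and 25.3 TPM at stage 3, and 27.3, 77.3 and 34.7 TPM at stage 4. Every cold library thus lay above every library without cold, and the stage 4 mean was below the stage 3 mean in AB and above it in SAM. Stage 4 against stage 1 gave a log2 change of 6.31 ± 1.25 in AB (approximate SE, n = 3 and 2, edgeR adjusted p = 0.00076). In SAM 1134 counts at stage 4 stood against 2 at stage 1, a ratio of 495 (95% interval 137 to 4091 for counting error only, edgeR adjusted p = 2.73e-05). COR15B passed the low-count filter through cold libraries alone, so neither call is separate support for a rise.

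COR27, which in Arabidopsis links the clock, light and freezing tolerance, was already detectable before the cold. AB libraries had 4.58 and 2.40 TPM at stage 1, 14.7, 9.26 and 4.07 TPM at stage 2, 58.1, 34.4 and 34.4 TPM at stage 3, and 20.3, 18.8 and 25.2 TPM at stage 4. SAM libraries had 1.87, 0.951 and 0.770 TPM at stage 1, 7.55, 5.07 and 3.08 TPM at stage 2, 22.7, 35.3 and 28.4 TPM at stage 3, and 21.2, 21.5 and 25.6 TPM at stage 4. The stage 4 libraries of the tissues overlapped, and they lay above those of stage 1 in each. The change against stage 1 was 2.66 ± 0.47 in AB (edgeR adjusted p = 0.000208) and 4.23 ± 0.44 in SAM (adjusted p = 1.27e-06).

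Dormancy-associated 1 (DRM1, Aa_G438760, minus strand of chromosome 4, 36558274 to 36558894), a marker of dormant buds, was the most abundant of the 83 genes at stage 3. Its AB libraries held 230 and 146 TPM at stage 1, 1089, 452 and 210 TPM at stage 2, 3566, 2640 and 2340 TPM at stage 3, and 755, 710 and 607 TPM at stage 4. Its SAM libraries held 12.1, 7.65 and 14.7 TPM at stage 1, 124, 50.3 and 35.0 TPM at stage 2, 718, 1125 and 797 TPM at stage 3, and 707, 848 and 682 TPM at stage 4. The tissues did not overlap at stage 1 and overlapped at stage 4. Stage 4 exceeded stage 1 by 1.93 ± 0.56 in AB (edgeR adjusted p = 0.0113) and 6.02 ± 0.61 in SAM (adjusted p = 1.93e-06). The AB call was lost without replicate 2 of AB stage 1 (adjusted p = 0.115).

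A gene described as cold resistance protein 1 (Aa_G56450, chromosome 8, 12277191 to 12277605) followed a like course. The AB values were 60.9 and 114 TPM at stage 1, 86.4, 101 and 106 TPM at stage 2, 383, 695 and 287 TPM at stage 3, and 133, 94.8 and 122 TPM at stage 4. The SAM values were 6.58, 9.29 and 7.33 TPM at stage 1, 14.1, 16.5 and 18.1 TPM at stage 2, 56.9, 162 and 123 TPM at stage 3, and 118, 171 and 149 TPM at stage 4. Stage 4 and stage 1 overlapped in AB, with a change of 0.47 ± 0.41 (edgeR adjusted p = 0.387), and were far apart in SAM, with 4.23 ± 0.46 (adjusted p = 3.1e-06). The senescence gene DIN1 (Aa_G376370) stood at 11.4, 11.5 and 10.4 TPM at stage 4 against 22.9 and 10.9 TPM at stage 1 in AB, a change of −0.55 ± 0.45 (adjusted p = 0.347). In SAM it stood at 13.4, 16.6 and 14.6 TPM at stage 4 against 5.11, 4.15 and 8.66 TPM at stage 1, higher by 1.31 ± 0.42 (adjusted p = 0.0228). A LEA gene (Aa_G475200), of the family that protects proteins during drying, was higher at stage 4 in both tissues. It had 1.14, 1.73 and 1.49 TPM at stage 4 against 0.158 and 0.212 TPM at stage 1 in AB (2.99 ± 0.61, adjusted p = 0.000471). In SAM it had 4.42, 4.05 and 5.04 TPM at stage 4 against 2.18, 1.69 and 1.68 TPM at stage 1 (1.28 ± 0.34, adjusted p = 0.00559).

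Stress and hormone regulators made up 7 of the genes, of which 7 were higher at stage 4 in SAM and 4 in AB. A gene described as a dehydration responsive element binding protein (Aa_G170440), a factor of the DREB family, had 2.38, 5.31 and 1.32 TPM at stage 4 against 0.314 and 0.237 TPM at stage 1 in AB. SAM libraries had 3.13, 12.5 and 2.59 TPM at stage 4 against 0.354, 0.299 and 0.116 TPM at stage 1. Groups did not overlap in either tissue, and the changes were 3.47 ± 1.01 in AB (edgeR adjusted p = 0.0103) and 4.53 ± 0.80 in SAM (adjusted p = 0.000258). The AB call was lost without replicate 1 or 2 of AB stage 1 (adjusted p up to 0.0879). A DREB3-like gene (Aa_G681990) had 2.54, 2.61 and 3.72 TPM at stage 4 against 2.83 and 4.53 TPM at stage 1 in AB, overlapping groups with a change of −0.26 ± 0.35 (adjusted p = 0.582). Its SAM libraries held 4.51, 4.96 and 6.58 TPM at stage 4 against 0.473, 0.240 and 0.855 TPM at stage 1, higher by 3.32 ± 0.37 (adjusted p = 6.08e-07).

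A MYB gene (Aa_G246250), of a large family of transcription factors, had 3.86, 4.20 and 3.05 TPM at stage 4 against 5.07 and 5.01 TPM at stage 1 in AB (−0.39 ± 0.43, edgeR adjusted p = 0.501). The SAM values were 5.0, 8.07 and 6.38 TPM at stage 4 against 0.323, 0.393 and 0.955 TPM at stage 1 (3.51 ± 0.47, adjusted p = 7.13e-06). The NAC72 gene (Aa_G107220), in Arabidopsis a regulator of responses to drought and abscisic acid, passed in both tissues. It had 11.3, 13.3 and 12.7 TPM at stage 4 against 5.81 and 6.93 TPM at stage 1 in AB, and 18.1, 21 and 16.6 against 5.94, 4.11 and 4.61 TPM in SAM. Its changes were 1.02 ± 0.23 (adjusted p = 0.00119) in AB and 1.92 ± 0.20 (adjusted p = 2e-07) in SAM. An aminocyclopropane-carboxylate oxidase gene (Aa_G22610), of the last step of ethylene synthesis, changed by 0.77 ± 0.32 in AB (adjusted p = 0.0563) and 2.12 ± 0.29 in SAM (adjusted p = 8.55e-06). The bZIP gene next to NTF2 was higher by 2.02 ± 0.44 in AB and 1.65 ± 0.36 in SAM (adjusted p = 0.00125 and 0.00175).

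Another bZIP gene (Aa_G109510, minus strand of chromosome 1, 11124610 to 11125191) had its highest group means at stage 4. In AB it had 1.15 and 2.43 TPM at stage 1, 2.19, 1.37 and 1.62 TPM at stage 2, 5.70, 4.93 and 4.51 TPM at stage 3, and 31.8, 49.3 and 46.7 TPM at stage 4. In SAM it had 0.575, 0.875 and 0.945 TPM at stage 1, 1.97, 1.36 and 3.35 TPM at stage 2, 18.4, 15.6 and 41.9 TPM at stage 3, and 45.0, 57.3 and 47.9 TPM at stage 4. SAM stood above AB at stage 3, and the tissues overlapped at stage 4. The stage 4 against stage 1 change was 4.62 ± 0.46 in AB (edgeR adjusted p = 3.33e-07) and 5.95 ± 0.42 in SAM (adjusted p = 6.5e-09).

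Flowering, clock and chromatin genes made up 6 of the 83, with 4 higher at stage 4 in AB and 5 in SAM. SPL8 (Aa_G106150, minus strand of chromosome 1, 80649 to 82109), an SBP-box factor that acts in anther development in Arabidopsis, had 1.03 and 2.22 TPM at stage 1, 0.743, 2.59 and 1.73 TPM at stage 2, 5.81, 3.73 and 5.21 TPM at stage 3, and 52.2, 68.7 and 86.0 TPM at stage 4 in AB. SAM libraries had 1.88, 1.35 and 5.57 TPM at stage 1, 3.81, 7.81 and 4.00 TPM at stage 2, 39.0, 25.2 and 38.2 TPM at stage 3, and 105, 119 and 130 TPM at stage 4. Each cold stage lay above the one before in every library of both tissues. The stage 4 against stage 1 changes were alike in size, at 5.45 ± 0.55 in AB (edgeR adjusted p = 1.01e-06) and 5.32 ± 0.41 in SAM (adjusted p = 7.65e-08).

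The vernalization5/VIN3-like gene (Aa_G307430, minus strand of chromosome 8, 39161705 to 39164065), whose Arabidopsis relatives recruit Polycomb silencing to FLC, was low before the cold. AB libraries had 1.07 and 0.647 TPM at stage 1, 0.867, 1.05 and 0.999 TPM at stage 2, 1.79, 2.23 and 3.33 TPM at stage 3, and 5.89, 10.1 and 7.29 TPM at stage 4. Its SAM libraries held 0.525, 0.369 and 0.478 TPM at stage 1, 0.332, 0.573 and 0.662 TPM at stage 2, 1.93, 2.72 and 4.65 TPM at stage 3, and 7.69, 6.75 and 6.99 TPM at stage 4. Its changes were 3.22 ± 0.38 in AB (edgeR adjusted p = 1.08e-06) and 3.95 ± 0.34 in SAM (adjusted p = 1.99e-08). SOC1 (Aa_G15970), a MADS-box promoter of flowering, had 34.5, 34.7 and 34.5 TPM at stage 4 against 5.85 and 4.72 TPM at stage 1 in AB, and 30.8, 33.4 and 28.3 against 3.10, 5.59 and 5.01 TPM in SAM. The changes of SOC1 were 2.76 ± 0.24 (adjusted p = 1.39e-08) and 2.75 ± 0.20 (adjusted p = 1.7e-09). A histone H2B gene (Aa_G403520), which packs DNA into chromatin, was higher by 2.08 ± 0.30 in AB and 2.13 ± 0.25 in SAM (adjusted p = 1.02e-05 and 9.53e-07). A MADS-box gene described as agamous-like 65 (Aa_G308350), which acts in pollen in Arabidopsis, was higher in SAM by 1.54 ± 0.49 (adjusted p = 0.0245), with 1.15 ± 0.59 in AB (adjusted p = 0.131). The clock gene LHY (Aa_G177850) had 5.37, 11.3 and 3.75 TPM at stage 4 against 0.353 and 1.99 TPM at stage 1 in AB, and 5.37, 9.20 and 2.97 against 0.398, 0.437 and 2.42 TPM in SAM. LHY did not overlap between stages but passed in neither tissue (2.60 ± 1.14, adjusted p = 0.0816, and 2.43 ± 0.96, adjusted p = 0.0619). The time of day of harvest was not given in the sources used here.

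**Figure D4:**
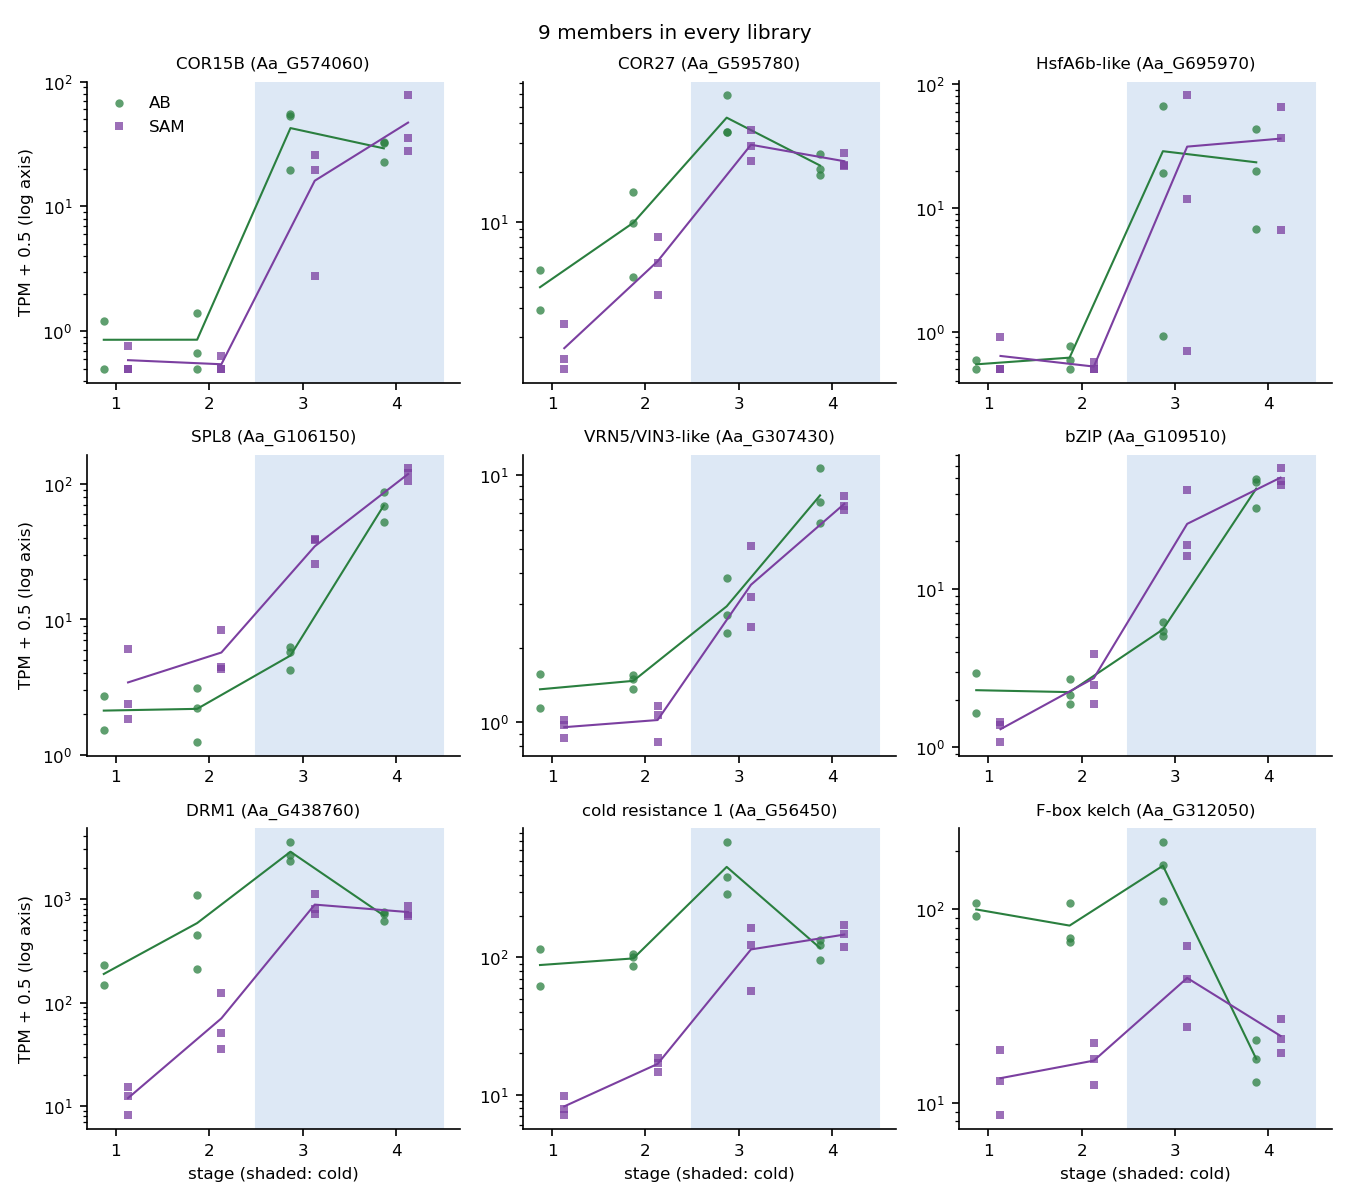
Points are single libraries of AB (circles) and SAM (squares) at the 4 stages, lines join group means, the y axis is TPM + 0.5 on a log scale, and cold stages are shaded. SPL8, the VRN5/VIN3-like gene and the bZIP gene are highest at stage 4 in both tissues, whereas DRM1, cold resistance protein 1 and the F-box kelch gene peak at stage 3 in AB; F-box kelch stands at 16.2, 20.5 and 12.3 TPM in AB at stage 4.

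Sugar and carbon metabolism accounted for 6 genes, of which 5 were higher at stage 4 in AB and 6 in SAM. Sucrose synthase 1 (Aa_G115790), which splits sucrose in sink tissue, had 87.3, 133 and 86.6 TPM at stage 4 against 15.9 and 6.93 TPM at stage 1 in AB, and 88.6, 117 and 73.4 against 9.0, 6.12 and 11.3 TPM in SAM. The tissues held like levels at both ends, and the changes were 3.22 ± 0.52 in AB (edgeR adjusted p = 0.000147) and 3.40 ± 0.44 in SAM (adjusted p = 2.54e-05). A neutral invertase-like gene (Aa_G385140), of a family that hydrolyses sucrose, was higher by 1.48 ± 0.26 in AB and 2.25 ± 0.22 in SAM (adjusted p = 0.000167 and 4.37e-07). SUC2 (Aa_G3310), a sucrose carrier of the phloem in Arabidopsis, had 3.17, 2.51 and 2.46 TPM at stage 4 against 0.753 and 1.28 TPM at stage 1 in AB (1.47 ± 0.25, adjusted p = 7.34e-05). In SAM SUC2 had 3.01, 3.65 and 3.82 TPM at stage 4 against 0.884, 1.00 and 1.01 TPM at stage 1 (1.84 ± 0.21, adjusted p = 6.49e-07). An aldolase gene of glycolysis (Aa_G11780) and an inositol oxygenase gene (Aa_G393280) were also higher in both, by 2.76 ± 0.80 and 2.5 ± 0.70 in AB and by 3.55 ± 0.67 and 3.89 ± 0.65 in SAM. Beta-glucosidase 45 (Aa_G300680), which in Arabidopsis acts on lignin precursors, was at 2.37, 2.15 and 3.15 TPM at stage 4 against 1.42 and 2.71 TPM at stage 1 in AB (0.36 ± 0.30, adjusted p = 0.364). In SAM it was at 2.31, 3.57 and 3.08 TPM at stage 4 against 0.284, 0.505 and 0.526 TPM at stage 1 (2.75 ± 0.31, adjusted p = 5.68e-07).

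Heat stress factors and chaperones that the wording of the rule had kept numbered 8, with 4 higher at stage 4 in AB and 5 in SAM. The HsfA6b-like gene (Aa_G695970, chromosome 5, 16302939 to 16304270), a heat stress transcription factor that in Arabidopsis also answers to abscisic acid, had the largest ratio of the 83 when each gene is read in the tissue where its ratio was smaller (46.5, in AB). Its AB libraries held 0.0897 and 0 TPM at stage 1, 0, 0.0877 and 0.263 TPM at stage 2, 0.426, 18.7 and 65.5 TPM at stage 3, and 19.3, 43 and 6.2 TPM at stage 4. The SAM values were 0, 0.410 and 0 TPM at stage 1, 0, 0.0684 and 0 TPM at stage 2, 0.201, 11.2 and 80.8 TPM at stage 3, and 36.4, 64.6 and 6.18 TPM at stage 4. Replicate 1 of stage 3 was near the level before cold in both tissues, while every stage 4 library, the lowest at 6.18 TPM, lay above every library without cold. In AB 866 counts at stage 4 stood against 1 at stage 1, a ratio of 523 (95% interval 93.5 to 20665, edgeR adjusted p = 0.0491), and in SAM the change was 7.97 ± 2.25 (adjusted p = 0.0125). The HsfA6b-like gene passed the low-count filter through cold libraries alone, so neither call is separate support for a rise. The AB call was lost under 7 of 12 alternatives, among them leaving out replicate 1 or 2 of AB stage 1 or replicate 1 or 2 of AB stage 4 (adjusted p up to 0.202).

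The small chaperone hsp22 (Aa_G154320) had 3.80, 9.28 and 4.57 TPM at stage 4 against 0 and 0.126 TPM at stage 1 in AB, and 10.7, 21.2 and 18.3 against 0, 0 and 0.279 TPM in SAM. Its ratio of counts was 95.9 in AB (95% interval 17 to 3813, edgeR adjusted p = 0.0162) and 169 in SAM (57.5 to 822, adjusted p = 0.000522). An hsp20-like chaperone (Aa_G625050) had 79 counts at stage 4 and 0 at stage 1 in AB, at least 15.9-fold higher when its stage 1 total is set to 3 counts (adjusted p = 0.03). In SAM it had 183 counts against 1, a ratio of 160 (28.3 to 6342, adjusted p = 0.00487). Both genes passed the low-count filter through cold libraries alone, so their calls are not separate support for a rise. Both AB calls were lost without replicate 1 or 2 of AB stage 1, and that of the hsp20-like gene also without replicate 2 of AB stage 4 (adjusted p up to 0.102 and 0.131). Fes1A (Aa_G403670), a partner of Hsp70 in Arabidopsis, had 136, 231 and 82.0 TPM at stage 4 against 38.2 and 38.1 TPM at stage 1 in AB (2.03 ± 0.77, adjusted p = 0.0456), a call lost under 6 of 12 alternatives, among them without replicate 1 or 2 of AB stage 1 or replicate 1 or 2 of AB stage 4 (adjusted p up to 0.173). In SAM Fes1A had 210, 244 and 96.5 TPM at stage 4 against 57.3, 69.9 and 55.5 TPM at stage 1 (1.60 ± 0.64, adjusted p = 0.0666; adjusted p = 0.0487 without replicate 3 of SAM stage 4). HsfA2 (Aa_G290430), which sustains the heat response in Arabidopsis, had 43.2, 72.6 and 14 TPM at stage 4 against 1.45 and 5.38 TPM at stage 1 in AB, and 55.8, 82.3 and 12.3 against 11.2, 20.8 and 4.07 TPM in SAM. HsfA2 passed in neither (adjusted p = 0.0611 and 0.152; adjusted p = 0.0489 in AB without replicate 3 of AB stage 4). A further hsp22 gene (Aa_G124910), whose model overlaps another, was higher in SAM by 3.72 ± 0.94 (adjusted p = 0.00565), with 2.5 ± 1.28 in AB (adjusted p = 0.131). The HsfA6b gene Aa_G273040 passed in neither (adjusted p = 0.0839 and 0.0741). A gene of the chaperone-domain description (Aa_G214040) had 0 counts at stage 1 in both tissues and 62 counts at stage 4 in SAM, at least 18.0-fold higher (adjusted p = 0.039). This gene too passed the low-count filter through cold libraries alone, so its call is not separate support for a rise.

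Protein turnover held 6 genes, with 3 higher and 1 lower at stage 4 in AB and 5 higher in SAM. A 26S proteasome subunit gene (Aa_G374460), part of the machine that degrades tagged proteins, was lower at stage 2 than at stage 1 in AB, with 19.3 and 14.6 TPM at stage 1, 2.90, 4.44 and 3.51 TPM at stage 2, 25.8, 24.4 and 43.7 TPM at stage 3, and 76.1, 104 and 88.1 TPM at stage 4. SAM libraries had 11.5, 11.8 and 6.25 TPM at stage 1, 7.32, 6.44 and 8.72 TPM at stage 2, 84.7, 64.8 and 77.6 TPM at stage 3, and 99.4, 101 and 108 TPM at stage 4. Stage 4 was higher than stage 1 by 2.45 ± 0.28 in AB (edgeR adjusted p = 2.73e-06) and 3.38 ± 0.25 in SAM (adjusted p = 2.34e-08). A herc1-like ubiquitin ligase gene (Aa_G393840) was higher by 3.34 ± 0.89 in AB and 2.57 ± 0.68 in SAM (adjusted p = 0.0072 and 0.00843), and the AB call was lost without replicate 1 of AB stage 1 (adjusted p = 0.0767). CDC48 (Aa_G14360), an ATPase that pulls proteins out of complexes, had 15.2, 15.1 and 12.7 TPM at stage 4 against 5.06 and 7.74 TPM at stage 1 in AB, and 17.9, 19.4 and 12 against 1.56, 2.28 and 1.83 TPM in SAM. Its changes were 1.22 ± 0.33 (adjusted p = 0.00779) and 3.13 ± 0.32 (adjusted p = 1.31e-06). A COP9 signalosome subunit 7 gene (Aa_G136060), whose complex controls cullin ubiquitin ligases, was higher in SAM by 3.10 ± 0.43 (adjusted p = 9.88e-06), with 0.36 ± 0.40 in AB (adjusted p = 0.498). A polyubiquitin 2 gene (Aa_G1860) had 26 counts at stage 4 and 0 at stage 1 in SAM, at least 7.56-fold higher (adjusted p = 0.0235). It passed the low-count filter through cold libraries alone, so that call is not separate support for a rise.

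The F-box kelch-repeat gene (Aa_G312050, minus strand of chromosome 2, 36155743 to 36156810) was the 1 gene of the 81 called lower at stage 4 in AB, where 8 had a negative fitted change. F-box proteins select targets for ubiquitin ligases. The AB values were 106 and 91.4 TPM at stage 1, 107, 67.3 and 70 TPM at stage 2, 222, 168 and 109 TPM at stage 3, and 16.2, 20.5 and 12.3 TPM at stage 4. Its SAM libraries held 8.09, 12.4 and 18.1 TPM at stage 1, 19.8, 11.8 and 16.3 TPM at stage 2, 42.9, 63.6 and 24.0 TPM at stage 3, and 17.6, 26.5 and 20.7 TPM at stage 4. The change was −2.54 ± 0.40 in AB (edgeR adjusted p = 0.000105) and 0.74 ± 0.38 in SAM (adjusted p = 0.151), where stage 4 and stage 1 overlapped.

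Transport and trafficking held 6 genes, 5 higher at stage 4 in AB and 6 in SAM. TRAPP complex subunit 3, part of a tether for transport vesicles, had nearly no reads without cold. In AB it had 0 and 0 TPM at stage 1, 0.134, 0 and 0.261 TPM at stage 2, 8.98, 6.49 and 14 TPM at stage 3, and 15.2, 18.1 and 11.8 TPM at stage 4. The SAM values were 0.0999, 0.101 and 0.0986 TPM at stage 1, 0.103, 0 and 0.219 TPM at stage 2, 11.3, 10.8 and 12.8 TPM at stage 3, and 12.6, 10.5 and 11.6 TPM at stage 4. Its libraries lay close together within the cold groups, and each cold library was above each library without cold. In AB 385 counts stood against 0, at least 77.4-fold higher (edgeR adjusted p = 7.53e-09), and in SAM 402 counts against 3, a ratio of 117 (95% interval 39.7 to 569, adjusted p = 1.87e-09). The TRAPP gene passed the low-count filter through cold libraries alone, so its calls are not separate support for a rise. Its neighbour COR27, at 1132 bp, had at least 0.770 TPM in every library at stage 1.

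A zinc and cadmium transporter gene (Aa_G457560) had 347, 160 and 288 TPM at stage 4 against 27.3 and 29.4 TPM at stage 1 in AB (3.27 ± 0.55, edgeR adjusted p = 0.000216). In SAM it had 396, 158 and 262 TPM at stage 4 against 61.4, 78.1 and 54.5 TPM at stage 1 (2.07 ± 0.44, adjusted p = 0.00183). An amino acid selective channel gene (Aa_G243180) had 79.6, 97.0 and 103 TPM at stage 4 against 25.1 and 21.8 TPM at stage 1 in AB (2.04 ± 0.34, adjusted p = 0.000164), and 176, 244 and 218 against 21.1, 24.7 and 22.8 TPM in SAM (3.21 ± 0.29, adjusted p = 3.38e-07). An exocyst component 7 gene (Aa_G354740), of vesicle docking at the cell surface, was higher by 2.69 ± 0.35 in AB and 1.85 ± 0.28 in SAM, and the NTF2 gene by 0.99 ± 0.34 and 1.29 ± 0.31. A malate transporter gene (Aa_G160390) was higher in SAM by 1.35 ± 0.41 (adjusted p = 0.0176), with 1.12 ± 0.47 in AB (adjusted p = 0.068).

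The 3 chloroplast protein genes were higher in both tissues. They were CRR6 (Aa_G12980), needed in Arabidopsis to build the chloroplast NDH complex, an oxygen-evolving enhancer protein 2 gene (Aa_G359800) and a photosystem II polypeptide gene (Aa_G22420). CRR6 was higher by 2.01 ± 0.40 in AB and 2.08 ± 0.32 in SAM (edgeR adjusted p = 0.000418 and 3.61e-05). The photosystem II gene was higher by 0.85 ± 0.23 in AB (adjusted p = 0.00566; 0.122 without replicate 1 of AB stage 1) and 1.37 ± 0.20 in SAM (adjusted p = 2.23e-05).

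Among the 10 other described genes 6 were higher at stage 4 in AB and 7 in SAM. A pollen Ole e 1/extensin gene (Aa_G383500), of a cell wall protein family, had 236, 280 and 300 TPM at stage 4 against 21.1 and 40.5 TPM at stage 1 in AB (3.20 ± 0.39, edgeR adjusted p = 7.07e-06). SAM libraries had 452, 568 and 691 TPM at stage 4 against 44.9, 49.4 and 64.4 TPM at stage 1 (3.43 ± 0.32, adjusted p = 6.74e-07). A gene described as a disease resistance protein (Aa_G76980) had 9.97, 10.6 and 11.1 TPM at stage 4 against 1.67 and 1.78 TPM at stage 1 in AB, and 10.7, 9.60 and 10.9 against 1.5, 1.52 and 1.07 TPM in SAM. Its changes were 2.66 ± 0.29 (adjusted p = 3.24e-07) and 2.92 ± 0.24 (adjusted p = 1.29e-08). An embryo-specific protein 3 gene (Aa_G315910) was higher by 2.09 ± 0.48 in AB and 2.69 ± 0.42 in SAM. A maternal effect embryo arrest 14 gene (Aa_G81740) had 76.6, 65 and 38.7 TPM in AB at stage 3 and was called in neither tissue at stage 4 (0.23 ± 0.46 and 0.47 ± 0.41, adjusted p = 0.718 and 0.414).

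Of the 25 genes without an informative description 23 were tested, and 13 were higher in AB and 17 in SAM. Aa_G27380 had the highest ratio at stage 3 of the 83 in AB. It had 0.403 and 0.404 TPM at stage 1, 0.609, 1.18 and 0.197 TPM at stage 2, 347, 525 and 244 TPM at stage 3, and 110, 73.8 and 88.6 TPM at stage 4 in AB. Its SAM libraries held 0.151, 0 and 3.58 TPM at stage 1, 1.71, 3.53 and 0 TPM at stage 2, 3.30, 42.4 and 8.48 TPM at stage 3, and 29.9, 209 and 43.4 TPM at stage 4. AB libraries were thus well above SAM libraries at stage 3 and overlapped them at stage 4. The stage 4 against stage 1 change was 7.79 ± 1.76 in AB (edgeR adjusted p = 0.00227) and 6.2 ± 1.17 in SAM (adjusted p = 0.000718). Aa_G277510 was among the most abundant, with 301, 449 and 548 TPM at stage 4 against 5.44 and 9.04 TPM at stage 1 in AB, and 798, 867 and 1036 against 26.3, 30.3 and 63.1 TPM in SAM. Its changes were 5.95 ± 0.54 in AB (adjusted p = 3.89e-07) and 4.49 ± 0.39 in SAM (adjusted p = 3.22e-07). Aa_G289600 had 534 counts at stage 4 and 1 at stage 1 in SAM, a ratio of 466 (95% interval 83.3 to 18442, adjusted p = 2.85e-05), and was higher by 4.52 ± 0.97 in AB (adjusted p = 0.00128). Aa_G289600 passed the low-count filter through cold libraries alone, so neither call is separate support for a rise.

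Between 4 and 7 weeks of cold the genes took different courses. This step shares the stage 3 libraries with the rule, so it is described without a test. The ratio of stage 4 to stage 3, after adding 0.5 TPM, had a median of 0.839 in AB and 1.08 in SAM. It was above 1 in both tissues for 25 genes, below 1 in both for 27, below 1 in AB and above 1 in SAM for 19, and the reverse for 12. Without replicate 1 of stage 3, the medians were 0.764 in AB and 0.911 in SAM, and the ratio was above 1 for 32 genes in AB, where it had been 37, and for 35 in SAM, where it had been 44. Of the 8 heat stress factors and chaperones 3 were above 1 in AB and 4 in SAM, and none in either tissue without that replicate. Replicate 1 was the lowest stage 3 library for each of these 8 genes in both tissues, so leaving it out had to lower their ratios. It was chosen for this after the values were seen, and replicates 2 and 3 were not left out in turn for this ratio. The ratio was 2 or more in both tissues for 5 genes, which were SPL8 (12.8 in AB, 3.42 in SAM), Aa_G1010 (4.70 and 2.76), the VRN5/VIN3-like gene (2.81 and 2.12), LHY (2.75 and 2.39) and Aa_G586610 (2.20 and 2.03). Without replicate 1 of stage 3, SPL8 (14 and 3.68) and Aa_G1010 (4.99 and 2.41) still had 2 or more in both, while the VRN5/VIN3-like gene (2.52 and 1.83), LHY (1.98 and 1.75) and Aa_G586610 (2.15 and 1.91) did not. A ratio of 2 or more was found in AB alone for 7 genes, among them the bZIP gene Aa_G109510 (7.77 in AB, 1.96 in SAM) and SOC1 (2.16 and 1.76). In SAM alone it was found for 7, among them COR15B (0.688 in AB, 2.92 in SAM) and the DREB3-like gene (0.341 and 2.02), and for 4 without replicate 1 of stage 3 (COR15B 0.542 and 2.07, the DREB3-like gene 0.334 and 1.69). The ratio was 0.5 or less in AB for 19 genes and in SAM for 4, and in both for DIN1, Aa_G103340 and Aa_G212580. Without replicate 1 of stage 3 it was 0.5 or less for 25 genes in AB, 9 in SAM and 6 in both, DIN1 and Aa_G212580 among the 6. Of the cold, dehydration and dormancy proteins none of 6 was above 1 in AB, and 2 of 6 were in SAM. Of the stress and hormone regulators 2 of 7 were above 1 in AB and 7 of 7 in SAM. Of the flowering, clock and chromatin genes 5 of 6 were above 1 in AB and 4 of 6 in SAM. The counts of these 3 roles had the same values without replicate 1 of stage 3.

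**Figure D5:**
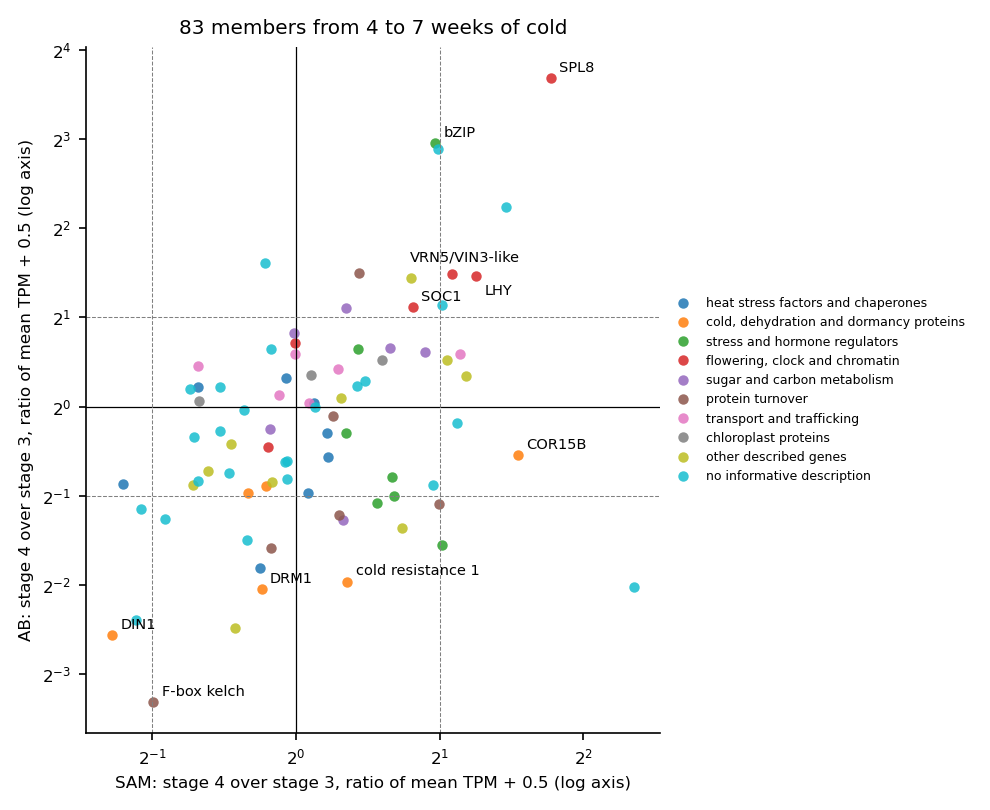
Each point is 1 of the 83 genes, with the ratio of stage 4 to stage 3 mean TPM + 0.5 in SAM on the x axis and in AB on the y axis, both on log scales; solid lines mark 1, dashed lines 2 and 0.5, and colours give the described role. SPL8 lies at the top (12.8 in AB), F-box kelch at the bottom (0.101 in AB), and 19 genes lie in the lower right, below 1 in AB and above 1 in SAM.

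At stage 4 the fitted difference of AB against SAM was negative for 63 of the 81 genes and positive for 18, with a median of −0.33 on the log2 scale, against 10650 negative and 10696 positive and a median of 0 over all tested genes. Of the 81, none was called higher in AB and 2 were called lower, where 1.35% of all tested genes were higher and 2.12% lower (3.47% together), so the members' share of 2.47% was near that of all genes. An unadjusted p under 0.05 was found for 15 of the 81. The libraries of AB and SAM did not overlap for 25 genes, 22 of them lower in AB, where 25.9% of all tested genes did not overlap, a share near that of the 81. The LEA gene was lower in AB by 1.63 on the log2 scale (−1.63 ± 0.35, edgeR adjusted p = 0.00945) and the amino acid channel gene by 1.20 (−1.20 ± 0.26, adjusted p = 0.0165), with the stage 4 values given above, which did not overlap. The call of the LEA gene was lost without replicate 1 of AB stage 4 (adjusted p = 0.0675). That of the channel gene was lost without replicate 1 or 2 of AB stage 4 or replicate 2 or 3 of SAM stage 4 (adjusted p up to 0.0895). DESeq2 called 4 genes at this stage.

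At stage 1, before any cold, 14 of 81 genes were higher in AB and 3 lower, where 18.2% of all tested genes were higher and 14.6% lower (32.8% together), and libraries did not overlap for 49, where 55.3% of all tested genes did not. DRM1 was higher in AB by 3.97 ± 0.62 (edgeR adjusted p = 0.000148), cold resistance protein 1 by 3.43 ± 0.51 (adjusted p = 6.82e-05) and the MYB gene by 3.09 ± 0.51 (adjusted p = 8.19e-05). The F-box kelch gene was higher in AB by 2.88 ± 0.40 (adjusted p = 4.57e-05) and the DREB3-like gene by 2.72 ± 0.41 (adjusted p = 2.72e-05). The 3 lower in AB were the LEA gene (−3.34 ± 0.59, adjusted p = 0.00016), Aa_G277510 (−2.52 ± 0.51, adjusted p = 0.00111) and a trichome birefringence-like 19 gene of the cell wall (Aa_G356640, −2.92 ± 1.10, adjusted p = 0.0494). The last was lost under 8 alternatives, among them without any of the AB or SAM libraries of stage 1 in turn (adjusted p up to 0.225).

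The difference between the tissues in the stage 4 against stage 1 change was tested by the interaction, which shares its libraries with the 4 comparisons above. Read with its sign, the change was lower in AB for 14 of 81 genes and higher for none. Over all tested genes it was lower for 13.6% and higher for 9.48% (23.1% together). An unadjusted p under 0.05 was found for 23 of the 81. The median difference was −0.37 (0.03 over all tested genes). DRM1 differed by −4.09 ± 0.78 (edgeR adjusted p = 0.00147), the MYB gene by −3.90 ± 0.64 (adjusted p = 0.000186), cold resistance protein 1 by −3.76 ± 0.62 (adjusted p = 0.000427), the DREB3-like gene by −3.58 ± 0.51 (adjusted p = 4.03e-05) and the F-box kelch gene by −3.28 ± 0.55 (adjusted p = 0.000539). The COP9 subunit 7 gene (−2.75 ± 0.59), beta-glucosidase 45 (−2.39 ± 0.43), CDC48 (−1.91 ± 0.46), DIN1 (−1.86 ± 0.61), the aminocyclopropane-carboxylate oxidase gene (−1.35 ± 0.42) and NAC72 (−0.90 ± 0.30) also passed, with adjusted p from 0.000407 to 0.0366. The other 3 were Aa_G100810 (−4.60 ± 1.11), Aa_G353240 (−2.91 ± 0.59) and Aa_G620250 (−2.70 ± 0.38), which have no informative description. The NAC72 call was lost without replicate 2 of AB stage 1, replicate 1 or 3 of AB stage 4, replicate 2 or 3 of SAM stage 1, or replicate 2 of SAM stage 4 (adjusted p up to 0.168). For SPL8 the interaction was 0.14 ± 0.74 (adjusted p = 0.923), for SOC1 0.01 ± 0.31 (adjusted p = 0.993) and for sucrose synthase 1 −0.18 ± 0.63 (adjusted p = 0.879). These p-values do not show that the changes of the tissues were alike.

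Most genes of the wider families lay outside the 83, which were themselves 83 of the 34220 genes in the table. For the list counts below, 19.2% of all tested genes were higher and 21.8% lower at stage 4 against stage 1 in AB. In SAM the shares were 17% and 16.6%. Differences of the lists from these shares were not tested. Of 56 genes described as cold acclimation proteins 2 were among the 83 (COR15B and COR27), and of the 41 tested 9 were higher and 15 lower at stage 4 in AB (median −0.22) and 17 higher and 2 lower in SAM (median 0.44). A further gene described as COR15B (Aa_G574050), not among the 83, averaged 2.08 TPM at stage 4 against 0.0888 TPM at stage 1 in AB and 5.80 against 0 TPM in SAM, and how reads were split between the pair is not given in the sources used here. Among 113 tested DREB and ERF factors 24 were higher and 39 lower in AB and 31 higher and 22 lower in SAM, with 2 of the list among the 83. Among 108 tested sugar genes 28 were higher and 32 lower in AB and 36 higher and 9 lower in SAM, with 3 among the 83. Of the 12 clock genes none was higher and 2 lower in AB, and 1 was higher and 1 lower in SAM, with LHY among the 83. Of 39 tested floral and vernalization genes 16 were higher and 9 lower in AB and 14 higher and 6 lower in SAM, with SPL8 and the VRN5/VIN3-like gene among the 83. SOC1, also among the 83, was not matched by that list.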

How the data were processed

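RNA was sequenced from 23 libraries of pooled buds or shoot tips. The deposited table gave, per the file headers, mapped read counts per gene and TPM computed by the authors for 34220 genes, of which 20918 had an informative description; many of the rest hold spreadsheet error text. The aligner, counting tool and use of strand are not given in the sources used here, and 46 further columns of values by library were not used. Positions came from the deposited annotation of assembly version 5, whose models, moved from version 4 by protein alignment, hold coding sequence only. No sequences are printed.

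The rule was applied to mean TPM. Tests used the deposited counts in 1 edgeR 4.0.16 quasi-likelihood fit (R 4.3.3) over the 8 groups of 23 libraries, with TMM scaling and a minimum count of 10 (filterByExpr), which left 21414 genes and 81 of the 83. P-values were adjusted by Benjamini-Hochberg over all tested genes, with a threshold of 0.05. The ± after a fitted log2 change is an approximate standard error (SE), the size of the change over the square root of its F statistic. It is rough for genes with few counts. Libraries were not duplicates: counts of same-group pairs differed beyond sampling noise, by a chi-square of 3.91 to 18.9 per degree of freedom. The fit was tested on simulated data. Intervals of low counts are exact and cover counting error only; the floor for a group at 0 is 3 counts over the group. The alternatives were DESeq2 1.42.0, limma 3.58.1 on log2 TPM, other scaling, no filter, fewer libraries, a replicate block, each library left out, and other settings of the rule.

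The 83 genes, the gene lists and the tests were chosen with earlier results of these data known, and the role groups were made after values were seen. Genes were named by rank: the highest stage 3 ratios and levels, up to 2 genes per list, the largest called changes in each test, and those next to the threshold. Other genes were named after their values were seen, to complete each role.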

Additional observations from a re-analysis of the deposited data

Results flagged for a closer look

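The test of the difference between the tissues in the stage 4 against stage 1 change passed for 14 of the 81 tested genes (17.3%). Read with its sign, the change was lower in AB for each of them. For the F-box kelch gene it was −2.54 in AB and 0.74 in SAM, so the AB change was the larger in size. Over all tested genes 23.1% passed and 13.6% had a lower signed change in AB, so the count itself does not set these genes apart. DRM1 (Aa_G438760) had a change smaller in AB than in SAM by a log2 difference of −4.09 ± 0.78 (edgeR adjusted p = 0.00147), with 607 to 755 TPM at stage 4 against 146 to 230 TPM at stage 1 in AB and 682 to 848 against 7.65 to 14.7 TPM in SAM. Cold resistance protein 1 (Aa_G56450) differed by −3.76 ± 0.62 (adjusted p = 0.000427) and the MYB gene (Aa_G246250) by −3.90 ± 0.64 (adjusted p = 0.000186). In these 3 genes the stage 4 levels of the tissues lay within a log2 difference of 0.81, and the stage 1 level was higher in AB. The DREB3-like gene (Aa_G681990) differed by −3.58, the F-box kelch gene (Aa_G312050) by −3.28, Aa_G353240 by −2.91, the COP9 subunit 7 gene by −2.75 and Aa_G620250 by −2.70. Beta-glucosidase 45 differed by −2.39, CDC48 by −1.91, DIN1 by −1.86, the aminocyclopropane-carboxylate oxidase gene by −1.35 and NAC72 by −0.90. Aa_G100810, which has no informative description, differed by −4.60 ± 1.11 (adjusted p = 0.00522). It had 2.43, 2.5 and 2.25 TPM at stage 4 against 2.41 and 2.02 TPM at stage 1 in AB, and 1.61, 16.2 and 2.46 against 0.402, 0.102 and 0.198 TPM in SAM, where replicate 2 of stage 4 stood far above the others. The Aa_G100810 interaction passed under every alternative run, with adjusted p from 0.000271 to 0.0429. Its AB against SAM difference at stage 1 was 3.10 ± 0.94 (adjusted p = 0.0149), a call lost without replicate 1 or 2 of AB stage 1 or replicate 2 of SAM stage 1 and in the fit of stages 1 and 4 alone (adjusted p up to 0.0757).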

How the results depend on the processing

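Among the called results of the genes named by rank, no fitted direction reversed under any alternative run. Results that were not called, and the counts, were not checked for a reversal. Counts of called genes under the leave-one-out fits ranged from 32 to 52 for stage 4 against stage 1 in AB, 55 to 68 in SAM, 0 to 3 for AB against SAM at stage 4, 12 to 16 at stage 1 and 11 to 15 for the interaction. The AB against SAM count at stage 4 was 4 with DESeq2, 4 in the fit of stages 1 and 4 alone and 4 with the replicate block. The replicate block gave 53 and 70 calls for stage 4 against stage 1 in AB and SAM, 18 between the tissues at stage 1 and 16 for the interaction. Deviations of same-numbered libraries had correlations of −0.15 to 0.23 between the tested groups. So few values of mixed sign cannot decide whether a number marks anything shared there. At stage 3, which enters no tested comparison, the correlations of same-numbered AB and SAM libraries were all positive (0.19, 0.13 and 0.17). The tissues therefore cannot be taken as independent of each other at that stage. The rule chose 279 genes at a ratio of 1.5, 33 at a ratio of 3 and 51 at a minimum of 5 TPM. Calls of the genes named by rank were followed through every alternative. In AB 18 of 26 passed in all, 29 of 29 in SAM, 0 of 2 between tissues at stage 4, 8 of 10 at stage 1 and 7 of 8 in the interaction. Genes named only to complete a role, or only for standing next to the threshold, are not in this tally. The causes of lost calls were not tested. AB stage 1 had 2 libraries, and fitted changes of the 6 genes in AB and 7 in SAM with 3 or fewer counts at stage 1 depend on the prior count.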

Other observations

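Several genes without an informative description had large values. Aa_G353240 had 16.1 and 11.8 TPM at stage 1, 0.763, 0.952 and 0.741 TPM at stage 2, 2.77, 1.49 and 3.5 TPM at stage 3, and 7.56, 6.35 and 12.9 TPM at stage 4 in AB. In SAM it had 3.65, 2.39 and 0.961 TPM at stage 1, 0, 0 and 0.0888 TPM at stage 2, 15.2, 9.73 and 15.8 TPM at stage 3, and 17.4, 5.91 and 11.5 TPM at stage 4. In AB its cold levels were thus below those of 4-week-old plants at stage 3, and stages 4 and 1 overlapped. Aa_G620250 had 18.6, 19 and 24.5 TPM at stage 4 against 7.96 and 10 TPM at stage 1 in AB, and 27.6, 26 and 26.3 against 2.02, 1.61 and 1.49 TPM in SAM. Its stage 4 against stage 1 change was 1.25 ± 0.27 in AB and 3.96 ± 0.28 in SAM (edgeR adjusted p = 0.000889 and 1.94e-09).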
